A study of Homo sapiens with 6 samples.

Results

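The 9 enzymes described here make serine from the glycolytic intermediate 3-phosphoglycerate (PHGDH, PSAT1 and PSPH) and pass its one-carbon unit through folate in the cytosol (SHMT1, MTHFD1) and in mitochondria (SHMT2, MTHFD2, MTHFD1L, ALDH1L2). They were chosen by gene name, with the signal values of this same comparison already known, so their own levels and changes are given as a description. All probe sets of the array that name 1 of these genes alone were taken, which gave 20 of 41091 probe sets naming 1 gene and 9 of 19775 genes. Of the 20 probe sets, 18 passed a filter on dim signals and were tested, at least 1 for each gene, and 5 others that name a member together with further genes were not used.

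PHGDH oxidises 3-phosphoglycerate, PSAT1 transfers an amino group to the product, and PSPH removes the phosphate to release serine. The serine hydroxymethyltransferases then split serine into glycine and a one-carbon unit bound to tetrahydrofolate, which the MTHFD enzymes and ALDH1L2 oxidise or reduce for purine and thymidylate synthesis, formate release and NADPH supply. In breast cancer the pathway is known for tumours and cell lines that carry extra copies of PHGDH or express it strongly, while other lines rely on serine from the medium.

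Each of 6 Affymetrix arrays was hybridised with the RNA of 1 sample, 3 labelled 231wCFry and 3 labelled MDA-MB-231. The second name is that of an established, invasive breast cancer cell line, and 231wCFry is a single stable clone of it, transfected with the wild-type Fry cDNA of the COP rat in a pEGFP-N1 plasmid, selected with puromycin and picked for a Fry level like that of MCF10A, a line of normal mammary cells. The MDA-MB-231 arrays are of untransfected cells (treatment none), and no vector-only clone is among the 6 samples. Both lines grew as monolayers in Advanced DMEM with heat-inactivated FBS and antibiotics, and RNA was taken before confluence and amplified before labelling. Passage numbers differed between the samples and are given for none of them, and nothing says that they came from separate cultures, so the p-values below measure only the spread between these arrays. With 3 arrays per group, that number limits the precision of every value.

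The arrays labelled 231wCFry went against their label in markers of cell identity, so effects of Fry, of the clone and of cell identity cannot be told apart in what follows. Of 7 breast epithelial markers 6 fell in them, with summed signals of 1695 to 1857 on arrays labelled 231wCFry and 8632 to 9269 on MDA-MB-231 arrays, and KRT19, a keratin of simple epithelia, averaged 1.1 and 1669. EPCAM, SPINT2, CDH1 and KRT19 stayed under 20 on each 231wCFry array, of which CDH1 did so on each MDA-MB-231 array too. Of 6 markers of mesenchymal breast lines 2 rose and 3 fell, with sums of 14128 to 16999.5 against 17682.9 to 19668.5. Of 10 melanocyte and neural crest markers 8 were read and 6 rose, with sums of 5016 to 5476 against 386 to 470.6, and the neural crest factor SOX10 averaged 1395 against 0.43, while the pigment genes PMEL and TYRP1 stayed under 20 on all arrays. The part of cell identity in the results below was not tested. In bulk RNA, fewer cells of a type and less RNA per cell cannot be told apart. The 4 probe sets of human FRY read 0.1 to 5 on the 231wCFry arrays and 0.5 to 9.8 on MDA-MB-231 arrays, below the array medians of 10.4 to 12.1, and they say nothing of a rat transgene. As a measure of RNA integrity, the 3′ GAPDH control read 1.24 to 1.33 times the 5′ one in 231wCFry and 1.36 to 1.39 times in MDA-MB-231.

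The start regions of some of the genes are shown first. RefSeq windows from 250 bases before to 50 bases after a gene's start (assembly GRCh38.p14) were at hand for PHGDH, PSAT1, SHMT1, MTHFD1, MTHFD2 and MTHFD1L. Those of PHGDH, PSAT1 and MTHFD2, whose probe sets all rose, are printed with that of MTHFD1L, which did not pass. MTHFD1L is the only 1 of the 6 genes with the ATF4-type motif. All 4 are on the plus strand, at chr1:119711684-119711983, chr9:78296875-78297174, chr2:74198365-74198664 and chr6:150866236-150866535, and capitals mark matches on either strand to 3 motifs: the NF-Y box CCAAT, the E-box of MYC-like factors, CACGTG, or the ATF4-type element TGATGNAAN.
PHGDH: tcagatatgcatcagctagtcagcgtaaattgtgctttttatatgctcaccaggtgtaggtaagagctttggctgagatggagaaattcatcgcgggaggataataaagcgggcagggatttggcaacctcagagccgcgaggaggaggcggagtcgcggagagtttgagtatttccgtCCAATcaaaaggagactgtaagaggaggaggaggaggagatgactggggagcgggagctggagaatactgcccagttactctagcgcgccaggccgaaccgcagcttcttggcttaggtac
PSAT1: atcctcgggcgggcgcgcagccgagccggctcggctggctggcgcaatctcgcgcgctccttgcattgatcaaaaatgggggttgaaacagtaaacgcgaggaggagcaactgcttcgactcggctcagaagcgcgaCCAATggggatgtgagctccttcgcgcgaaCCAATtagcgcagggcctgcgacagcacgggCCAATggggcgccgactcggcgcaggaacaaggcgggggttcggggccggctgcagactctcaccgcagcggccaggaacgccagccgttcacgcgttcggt
MTHFD2: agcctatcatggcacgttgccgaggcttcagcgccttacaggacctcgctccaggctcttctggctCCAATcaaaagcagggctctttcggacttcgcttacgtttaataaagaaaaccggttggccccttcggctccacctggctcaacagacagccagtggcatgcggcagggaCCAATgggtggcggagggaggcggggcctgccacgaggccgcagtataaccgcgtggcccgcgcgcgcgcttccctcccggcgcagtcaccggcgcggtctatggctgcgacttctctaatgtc
MTHFD1L: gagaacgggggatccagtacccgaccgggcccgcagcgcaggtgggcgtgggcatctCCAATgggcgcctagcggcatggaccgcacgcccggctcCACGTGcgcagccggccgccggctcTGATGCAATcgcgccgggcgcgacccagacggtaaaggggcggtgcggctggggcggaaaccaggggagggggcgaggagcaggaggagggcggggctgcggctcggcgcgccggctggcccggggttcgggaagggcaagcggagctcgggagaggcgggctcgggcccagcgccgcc

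TGATGNAAN, the composite element read by the stress factor ATF4 with C/EBP partners, was found in 3.61% of all 35116 windows of this length. It was found for 1 of the 6 genes, MTHFD1L, in 3 of its 4 windows, which overlap. CACGTG, the E-box read by MYC and related factors, was in 7.26% of all windows and in those of MTHFD1 and MTHFD1L. CCAAT, the box read by the factor NF-Y, was searched after these sequences had been seen. It was in 34.6% of all windows and for 6 of the 6 genes, with 3 matches in PSAT1, 2 in MTHFD2 and 1 in PHGDH, the last at 71 bases before the start. In the printed windows the matches to different motifs do not overlap. A match describes letters only, and no match says only that these letters are not in this window.

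In a limma fit over the whole array, with p-values adjusted by the Benjamini-Hochberg method and a threshold of 0.05, 6 of the 9 enzymes were higher in the 231wCFry arrays, 0 were lower and 3 did not pass. Over all 13630 genes tested, 34.1% rose and 33.1% fell, and since these genes were picked with their values known nothing is read from the difference. The median log2 change was 0.87 over the 9 enzymes and 0.01 over all genes. Each gene is read here by its brightest tested probe set, and a log2 change is the difference of the group means of log2(signal + 16), 231wCFry minus MDA-MB-231. This scale understates the change of dim genes. The groups did not overlap in 7 of the 9 enzymes and in 73.1% of all genes. By probe set, 13 of the 18 tested rose, 2 fell and 3 did not pass, beside 30.3% that rose and 32.3% that fell over the whole array.

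**Figure D1:**
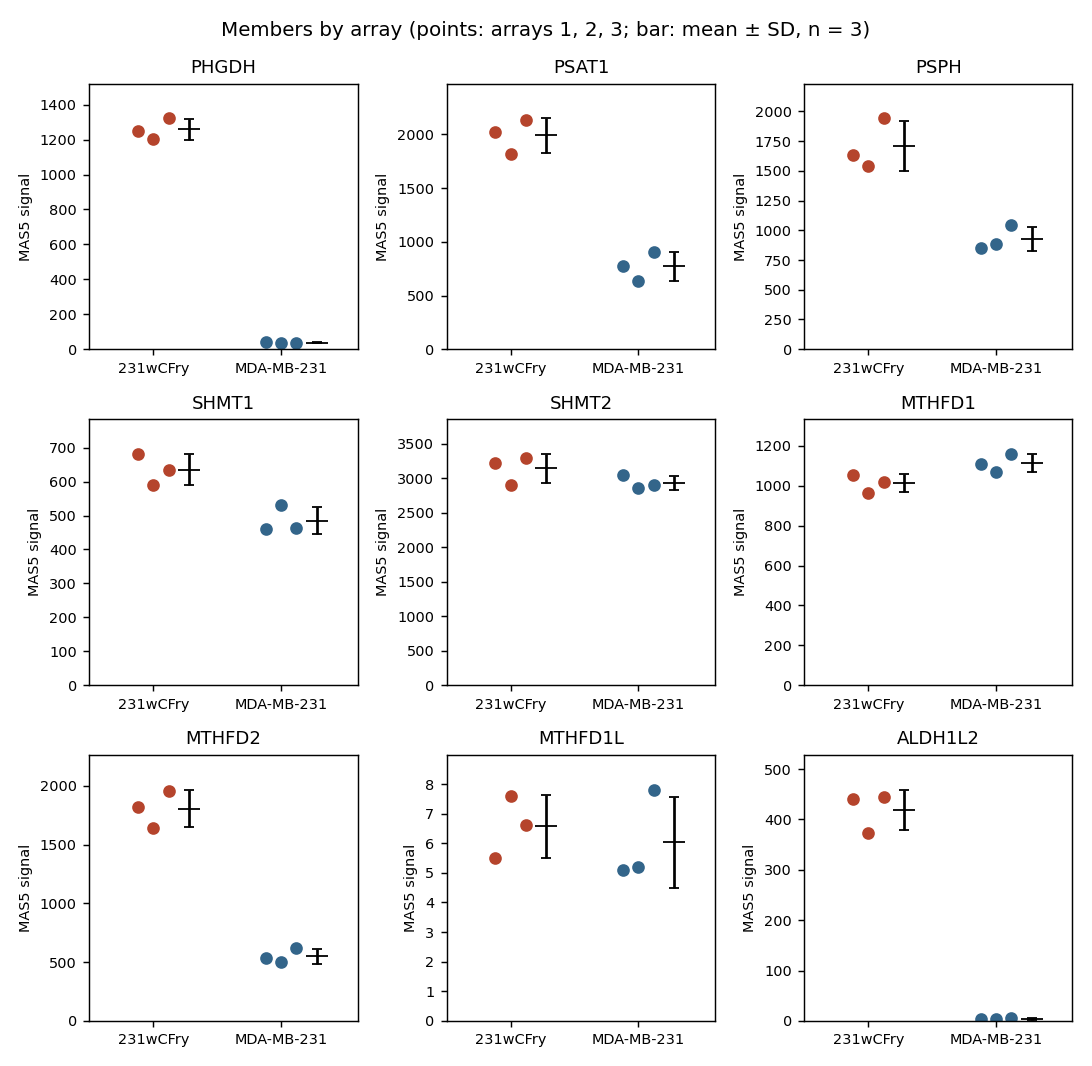
MAS5 signal (vertical axis, arbitrary units, from 0) of the brightest tested probe set of each enzyme on the 3 arrays labelled 231wCFry (left, red) and the 3 MDA-MB-231 arrays (right, blue), with the mean ± SD beside them. In PHGDH and ALDH1L2 the MDA-MB-231 points lie close to 0 on the panel's scale, while the groups overlap in SHMT2 and MTHFD1L, and MTHFD1L stays under 8.

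PHGDH, the first enzyme of serine synthesis, had the largest change of the 9 on the log2(signal + 16) scale, whereas with a pseudocount of 1 its log2 change was 5.02 and that of ALDH1L2 was 6.44. Its only probe set read 1247.1, 1205.5 and 1321.9 on the 231wCFry arrays and 42.8, 34.8 and 36.3 on the MDA-MB-231 arrays. Every 231wCFry array was far above every MDA-MB-231 array, and the means were 1258 ± 59 and 38 ± 4.25 (SD, n = 3 each), a ratio of 33.1. Its log2 change of 4.56 (SE 0.10) ranked 90 from the top among 13630 genes. The MDA-MB-231 readings lay above the highest unspiked bacterial control on each array, 2.5 to 4.6, so the gene was read at a low but measurable level there.

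PSAT1, the aminotransferase of the next step, was read by 2 probe sets, both of a type (names ending in _s_at) that can match several transcripts. The brighter gave 2025.3, 1816.5 and 2130.3 on the 231wCFry arrays, against 772.2, 634.7 and 904.2 on the MDA-MB-231 arrays, a log2 change of 1.36 (SE 0.13). The other gave 820.1, 829.2 and 846.1 against 264.4, 213.1 and 292.3, a log2 change of 1.65 (SE 0.12). The groups were apart on both.

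PSPH, the phosphatase of the last step, was read in opposite directions by its probe sets. The brightest gave 1631.4, 1542.5 and 1942.4 on the 231wCFry arrays, against 855, 884.8 and 1043.2 on the MDA-MB-231 arrays (log2 change 0.87, SE 0.12). Another, of the _s_at type, gave 147.6, 160.2 and 175.4, against 1577.6, 1494.8 and 1404.4 (log2 change -3.09, SE 0.10). The remaining probe set was dim and averaged 35.7 ± 7.3 against 16.1 ± 4.87 (log2 change 0.69). The groups did not overlap on any of the 3, so the direction of PSPH depends on which is read. Of 7241 genes with several tested probe sets, 6.73% were likewise called in both directions. RefSeq lists a PSPH pseudogene, PSPHP1, on the same chromosome, and which copy each probe set reads was not tested.

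**Figure D2:**
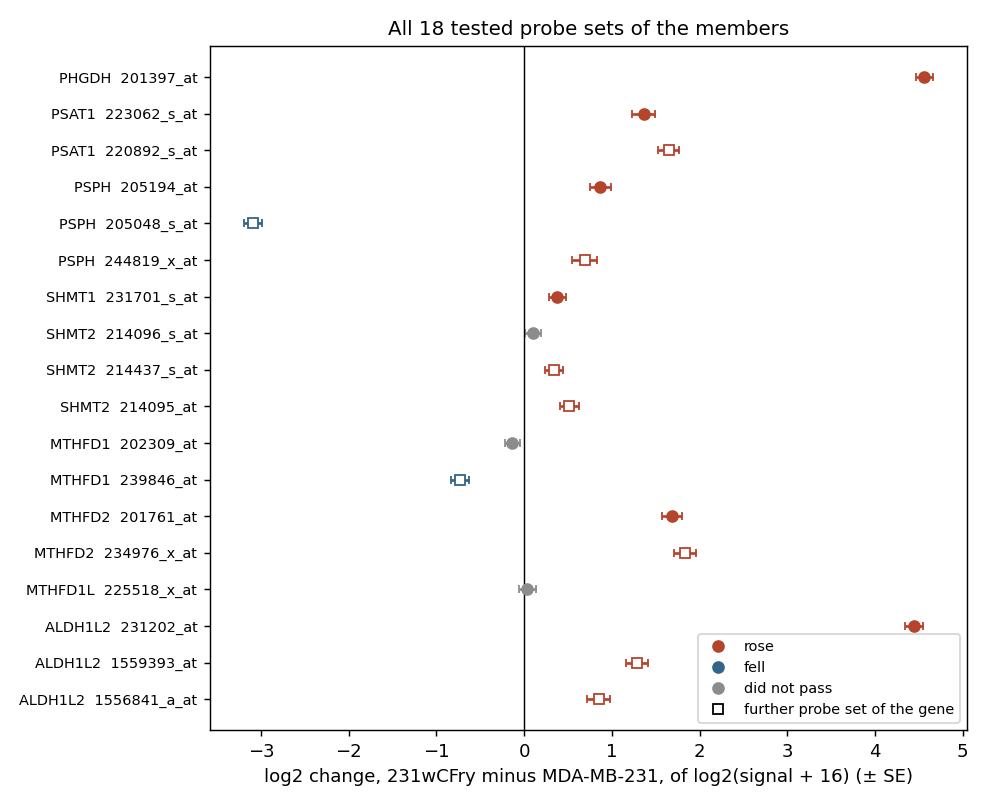
Log2 change of log2(signal + 16), 231wCFry minus MDA-MB-231 (horizontal axis, ± SE), for the 18 tested probe sets of the 9 enzymes, with filled circles for the brightest of each gene and open squares for the others. The 3 probe sets of PSPH lie on both sides of 0, at 0.87, 0.69 and -3.09, while those of PSAT1, MTHFD2 and ALDH1L2 all lie above it.

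Of the serine hydroxymethyltransferases, the cytosolic SHMT1 rose and the mitochondrial SHMT2 did so on some probe sets only. SHMT1 read 681.2, 590.5 and 634.1 on the 231wCFry arrays and 459.6, 530.4 and 464.2 on the MDA-MB-231 arrays (log2 change 0.38, SE 0.10). Its groups were close but did not overlap, and a second probe set, at 2.8 to 3.9 against 3 to 6, was too dim to be tested. The brightest SHMT2 probe set gave 3220.1, 2907.3 and 3299 against 3048, 2853.7 and 2903.8 (log2 change 0.10, SE 0.09), with overlapping groups, and did not pass. The other SHMT2 probe sets did, at 1072.5 ± 57.4 against 750 ± 85.7 (log2 change 0.51) and at 1182 ± 111 against 927 ± 61.3 (log2 change 0.34). The call of the last was lost without 231wCFry array 1 (log2 change 0.32) or 3 (0.28) and without MDA-MB-231 array 1 (0.32) or 2 (0.32).

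MTHFD2, the mitochondrial methylenetetrahydrofolate dehydrogenase, rose on both of its probe sets. The brighter read 1815.6, 1640.4 and 1959 on the 231wCFry arrays, against 533.4, 497.2 and 618.7 on the MDA-MB-231 arrays, a ratio of means of 3.28 (log2 change 1.69, SE 0.11). The other averaged 1117 ± 67.5 against 304 ± 48 (log2 change 1.83, SE 0.12). The groups were far apart on both.

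Its cytosolic counterpart MTHFD1, which carries synthetase, cyclohydrolase and dehydrogenase activities, read 1054, 964.4 and 1021.7 on the 231wCFry arrays and 1111.8, 1070.4 and 1159.3 on the MDA-MB-231 arrays. All 231wCFry readings lay below all MDA-MB-231 readings, but the log2 change of -0.13 (SE 0.09) did not pass. A dim second probe set fell, at 4.43 ± 1.68 against 17.9 ± 2.23 (log2 change -0.73). MTHFD2L, a mitochondrial relative of MTHFD2 that is not among the 9 enzymes, read 654.7, 653.2 and 681 against 568.8, 595.7 and 595.6 on its brightest probe set. Its log2 change was 0.17 (SE 0.08) with an adjusted p of 0.103 in limma. Among 5 further tested probe sets of MTHFD2L, 3 did not pass and 2 fell.

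ALDH1L2, the mitochondrial enzyme that oxidises formyltetrahydrofolate and yields NADPH, was close to background on the MDA-MB-231 arrays. Its brightest probe set gave 439.7, 373.4 and 444.1 on the 231wCFry arrays, against 3.4, 2.9 and 5.5 on the MDA-MB-231 arrays, where the highest unspiked controls read 2.5, 4.6 and 3.5. The groups were far apart, and no ratio is given because the lower readings are near that level. The log2 change of 4.45 (SE 0.10) became 6.44 with a pseudocount of 1, 2.83 with 64 and 1.29 as the median of its 3 probe sets. The further 2 probe sets were dimmer and moved the same way, at 31.2 ± 4.89 against 3.4 ± 2.86 and 18.6 ± 6.37 against 3.03 ± 1.04. MTHFD1L, the mitochondrial synthetase that releases formate, was read alone only by 2 probe sets at 2.6 to 7.6 on the 231wCFry arrays and 1 to 7.8 on the MDA-MB-231 arrays. These lie below the median of every array, and the brighter, the only one tested, did not pass (log2 change 0.04, SE 0.09). At such dim readings a difference in MTHFD1L could be missed.

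Within a group the enzymes tended to order the arrays alike. Of the 13 tested probe sets with a mean of at least 100 in either group, 11 read lowest on 231wCFry array 2 and 11 read highest on 231wCFry array 3. On the MDA-MB-231 side 10 of the 13 read lowest on array 2 and 8 highest on array 3. Among all 17128 tested probe sets this bright, array 2 was the lowest for 30.9% within 231wCFry and 29.3% within MDA-MB-231, and array 3 the highest for 33.7% and 33.1%. The 13 probe sets share genes and RNA and are not independent, and the part of passage number in this order was not tested. The wider set was not matched to them in brightness. Within 231wCFry, GAPDH (4178.9, 3752.9 and 4641.1) and VIM (3796.5, 3530.2 and 4535.8) also read lowest on array 2 and highest on array 3. SRR (983.7, 1045 and 932.5) had the reverse order. Whether the order is particular to the enzymes was not tested.

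Around the 9 enzymes, 8 lists of related genes held 80 genes, of which 66 were tested, 31 rose (47%), 15 fell (22.7%) and 20 did not pass. Over all genes tested, 34.1% rose and 33.1% fell, and the median log2 change was 0.18 over these 66 genes and 0.01 over all. The lists were written with earlier results of these arrays known.

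Genes that break down serine and glycine or cleave glycine mostly rose, 4 of 6 tested, with 1 lower. GCAT, which releases glycine in the breakdown of threonine, averaged 303.5 ± 16 in 231wCFry and 98.8 ± 4.48 in MDA-MB-231 (SD, n = 3). SRR, the serine racemase, averaged 987 ± 56.3 against 508.5 ± 18.4, although 1 of its other probe sets fell. GCSH, the carrier protein of glycine cleavage, averaged 847 ± 15.5 against 602 ± 51.9, and GLDC, the glycine decarboxylase, stayed dim at 20 ± 5.25 against 4.67 ± 0.31. The limma adjusted p of these 4 genes was at most 0.00157. AMT, the aminomethyltransferase of the same complex, fell to 26.1 ± 3.82 in 231wCFry, against 45.4 ± 8.23 in MDA-MB-231 (adjusted p = 0.00389).

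Of 8 other folate enzymes tested, 4 rose, 0 fell and 4 did not pass. ALDH1L1, the cytosolic counterpart of ALDH1L2, averaged 78.3 ± 3.11 in 231wCFry and 6.53 ± 1.95 in MDA-MB-231, and its other tested probe set did not pass. MTFMT, which formylates the initiator tRNA of mitochondria, averaged 226 ± 21.2 against 145 ± 16.4. GGH, a hydrolase of folate polyglutamates, averaged 1262 ± 23.4 against 925 ± 79.2, and DHFR2, a relative of dihydrofolate reductase, averaged 250.1 ± 4.24 against 172 ± 22.5 (log2 change 0.51, or 1.90 without probe set types prone to cross-hybridise). The adjusted p of these genes was at most 0.0026 (limma). TYMS, the thymidylate synthase, averaged 2478 ± 209 against 2571 ± 23.8 and did not pass (adjusted p = 0.627).

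Of 10 tested carriers of folate, serine and glycine, 3 rose, 3 fell and 4 did not pass. SLC1A4, a carrier of serine and other neutral amino acids, read 1486.7, 1445.8 and 1362.5 on the 231wCFry arrays, against 48.2, 48.1 and 73 on the MDA-MB-231 arrays, with its 4 other probe sets in the same direction. Its log2 change was 4.34 on this probe set but 0.75 without probe set types prone to cross-hybridise. SLC19A1, the reduced folate carrier, read 457.9, 486 and 441 against 0.6, 0.5 and 0.5. That was at least 135-fold higher against the level of the unspiked controls, and 4 of its other probe sets rose while 1 fell. Without the same types, SLC19A1 was read by the last and its log2 change was -0.87. Over the carriers 1 then rose and 4 fell, while SLC25A32, which had risen, had no probe set left to test. SFXN2, a mitochondrial sideroflexin, fell to 286 ± 4.46 in 231wCFry, against 570 ± 35.4 in MDA-MB-231, and SLC46A1, the proton-coupled folate carrier, to 81.5 ± 11.7, against 168 ± 9.31. The 2 other probe sets of SLC46A1 did not pass. The 4 genes had an adjusted p of at most 6.96e-05 (limma).

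In the methionine cycle and transsulfuration, where serine condenses with homocysteine, 5 of 13 tested genes rose and 3 fell. The counts were 2 and 4 without probe set types prone to cross-hybridise, and 5 and 5 with the median over a gene's probe sets. Without those types some genes, MAT1A and AHCY among them, had no probe set left to test. CBS, which makes cystathionine from serine, read 598.3, 577.7 and 584.9 on the 231wCFry arrays and 4.3, 3.1 and 3.6 on the MDA-MB-231 arrays (log2 change 4.94, SE 0.08). CTH, which cleaves cystathionine to cysteine, averaged 386 ± 39.3 against 144 ± 34. MAT1A, a methionine adenosyltransferase best known from liver, averaged 104 ± 2.61 against 0.23 ± 0.15, at least 30.4-fold higher, and AHCY, which splits S-adenosylhomocysteine, averaged 1417 ± 62.3 against 919.5 ± 23.1. The adjusted p of these 4 was at most 1.97e-04 (limma).

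**Figure D3:**
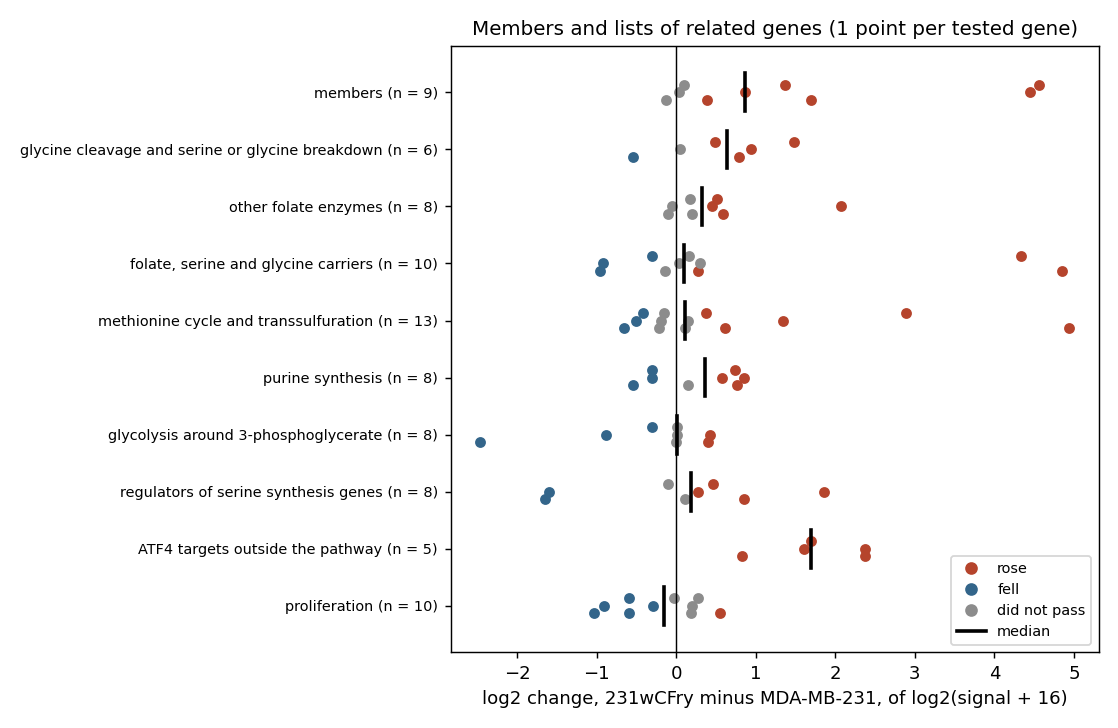
Log2 change of log2(signal + 16), 231wCFry minus MDA-MB-231 (horizontal axis), with 1 point per tested gene, for the 9 enzymes and 9 lists of related genes, coloured by direction of the call, with a bar at the median. All 5 ATF4 targets lie to the right of 0, and the other lists hold genes on both sides.

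The genes of purine synthesis, which takes up formyl groups from folate, were split, with 4 of 8 higher and 3 lower. ATIC and GART, the enzymes that use those formyl groups, averaged 2147 ± 127 and 1211 ± 135 in 231wCFry, against 1275 ± 66.8 and 707 ± 89.8 in MDA-MB-231. PRPS1, which makes the ribose donor, averaged 543 ± 18.5 against 294 ± 5.69, and ADSL, the adenylosuccinate lyase, 2085 ± 115 against 1395 ± 62.8. The adjusted p of these was at most 4.51e-04 (limma). The count of lower genes was 1 without 231wCFry array 1, without 231wCFry array 3 or without MDA-MB-231 array 1, and also with a pseudocount of 1 and all arrays.

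Of 8 glycolysis genes around 3-phosphoglycerate, the substrate of PHGDH, 2 rose, 3 fell and 3 did not pass. PGK1, the kinase that makes 3-phosphoglycerate, averaged 3061 ± 293 in 231wCFry and 2276.5 ± 114 in MDA-MB-231, although 1 of its 5 other probe sets fell. PGAM2, a mutase of muscle, was dim at 16.2 ± 2.25 against 8.53 ± 2.87. BPGM, which makes 2,3-bisphosphoglycerate, fell to 105 ± 15.1 in 231wCFry, against 208 ± 33.2 in MDA-MB-231, and ENO2, an enolase of neurons, to 53.7 ± 16, against 365 ± 49.8. The adjusted p of these 4 was at most 0.0114 (limma). With a filter at the 60th percentile 1 rose, because PGAM2 was then too dim to be tested.

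Of 8 regulators known to act on serine synthesis genes, 4 rose and 2 fell. KDM4C, a histone demethylase, averaged 167 ± 31.9 in 231wCFry and 34.1 ± 4.53 in MDA-MB-231, and CEBPB, a partner of ATF4, 1776 ± 72.7 against 980 ± 64.5. EIF2AK4, the GCN2 kinase that senses uncharged tRNA, fell to 204 ± 2.92 in 231wCFry, against 679 ± 65.2 in MDA-MB-231, while its other tested probe set did not pass. MYC fell to 108.5 ± 17.4, against 363 ± 62.5. The adjusted p of these 4 was at most 3.63e-05 (limma). ATF4 itself, which is controlled largely at translation, averaged 3952 ± 544 against 2850 ± 93.1 (adjusted p = 0.0055). Without probe set types prone to cross-hybridise, 1 of the regulators fell, because MYC had no probe set left to test.

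All 5 listed ATF4 targets outside the pathway rose. SESN2, a stress-induced regulator of growth signalling, averaged 263 ± 21.8 in 231wCFry and 38.1 ± 8.3 in MDA-MB-231, and TRIB3, a pseudokinase, averaged 549 ± 40.7 against 93.3 ± 10.4. CHAC1, which degrades glutathione, averaged 181 ± 15.2 against 45 ± 1.44, and ASNS, the asparagine synthetase, 1728 ± 68.2 against 569 ± 134. These 4 had an adjusted p of at most 1.39e-05 (limma), and the fifth, DDIT3, averaged 186 ± 4.3 against 98.7 ± 5.54. Stress genes were known to be higher on these arrays when the list was written, so the count is no independent evidence of its direction. Without probe set types prone to cross-hybridise, 3 of them rose, while ASNS and SESN2 had no probe set left to test.

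Of 10 proliferation genes, 1 rose, 5 fell and 4 did not pass. MKI67, which encodes the Ki-67 antigen, fell to 243 ± 24.8 in 231wCFry, against 512 ± 4.98 in MDA-MB-231, and TOP2A, a topoisomerase of dividing cells, to 1318 ± 68.2, against 2489 ± 189. MCM3, a subunit of the replicative helicase, fell to 631 ± 6.38, against 959 ± 8.52, and CDK1, the mitotic kinase, to 1219 ± 64.9, against 1850 ± 78.7. Their adjusted p was at most 3.09e-04 (limma). The count of risers was 2 without MDA-MB-231 array 1 and under 6 other settings, and the part of proliferation in the enzymes' levels was not tested.

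Position was not used to pick the enzymes, so the 5 nearest tested genes on each side in RefSeq gene order were read. Of these 90 neighbours 29 rose (32.2%) and 34 fell (37.8%), next to 34.1% and 33.1% over all genes. Around PHGDH 6 of 10 rose and 3 fell (median of the log2 changes 0.39), and the only neighbours that passed with a log2 change of at least 1 were LINC00622 (87.8 ± 1.35 in 231wCFry and 19.8 ± 4.27 in MDA-MB-231) and WARS2-AS1 (16.7 ± 2.48 against 122.6 ± 15.4). Around ALDH1L2 2 rose and 7 fell, among them the sulfotransferase CHST11 (562 ± 36.9 against 1433 ± 139), while EID3 rose (41.8 ± 5.39 against 5.93 ± 2.53). On the brightest probe sets, no neighbour of PHGDH or ALDH1L2 had as high a log2 change as the enzyme itself. Over all tested genes only 0.65% were higher than PHGDH and 0.68% higher than ALDH1L2, so nothing is read from this about position.

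Around PSPH 1 neighbour rose and 6 fell, among them the receptor EGFR (37.3 ± 4.88 in 231wCFry and 391 ± 77.1 in MDA-MB-231) and VOPP1 (742 ± 67 against 1851 ± 85.4). Around PSAT1 4 rose and 3 fell. The corepressor TLE4, the next tested gene after PSAT1, averaged 450.3 ± 29.3 against 3.1 ± 1.13 on its brightest probe set (log2 change 4.61, or 1.66 as the median of its probe sets), and FRMD3 averaged 696 ± 48 against 64.3 ± 2.88. Around MTHFD1L 6 rose and 2 fell, led by PPP1R14C (183 ± 15.6 against 1.4 ± 1.44) and PLEKHG1 (114 ± 26.3 against 2.63 ± 1.1). Around MTHFD2 4 rose, led by RTKN (488 ± 47.4 against 139 ± 2.31) and SLC4A5 (62.8 ± 24.4 against 16.6 ± 4.91), and 1 fell.

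The neighbours of the remaining enzymes were mixed. Around SHMT2 3 rose and 3 fell, led by INHBE, an inhibin chain (178 ± 15 in 231wCFry and 2.4 ± 2.17 in MDA-MB-231), and COXFA4L2, which was at least 6.39-fold higher. Around SHMT1 2 rose and 4 fell, among them FLII (239 ± 36.6 against 859 ± 30.8) and LINC02076, at least 9.99-fold higher on its brightest probe set but lower (log2 change -0.67) on the one left without types prone to cross-hybridise. Around MTHFD1 1 rose and 5 fell, among them PPP2R5E (508 ± 52.2 against 1325 ± 120) and AKAP5, at least 14.3-fold lower. The adjusted p of the named neighbours was at most 4.50e-04 (limma).

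**Figure D4:**
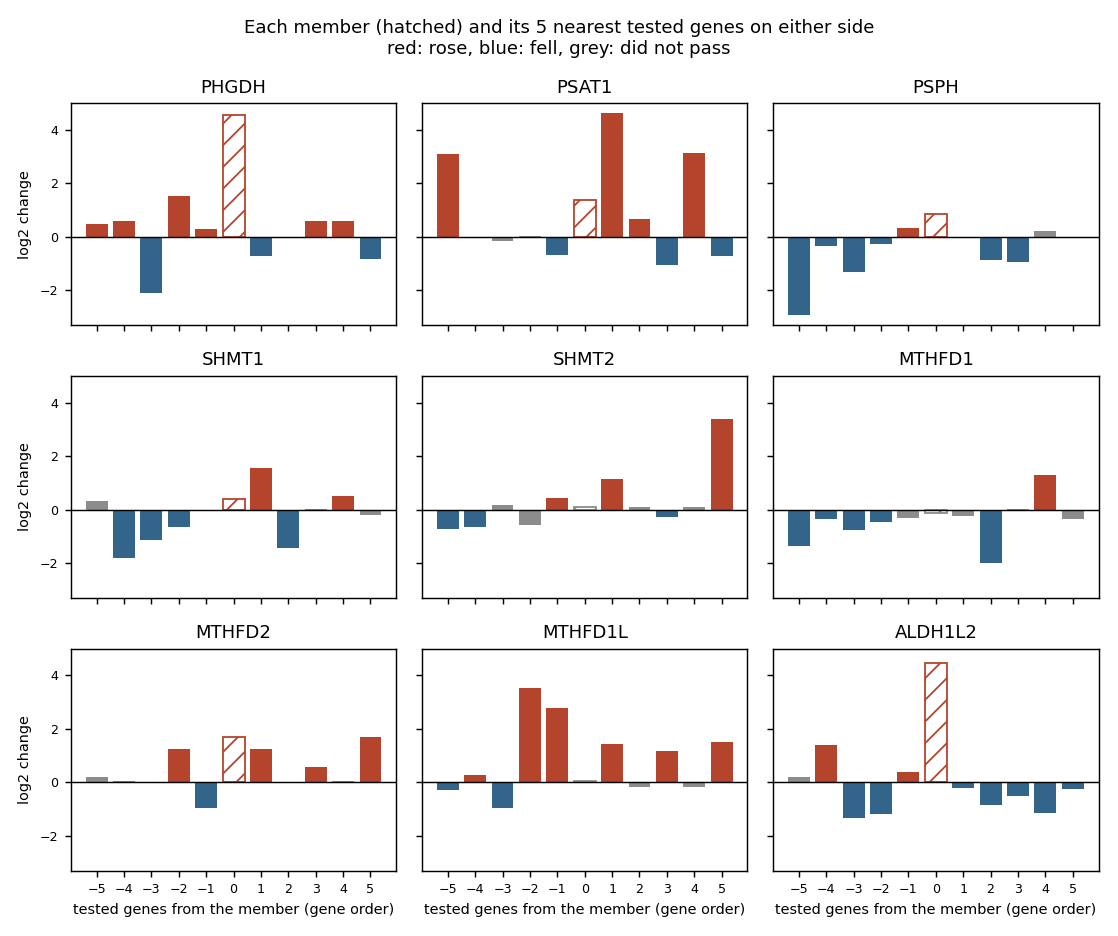
Log2 change of log2(signal + 16), 231wCFry minus MDA-MB-231 (vertical axis), of each enzyme (hatched, at 0) and of the 5 nearest tested genes on either side in RefSeq gene order (horizontal axis, in genes), coloured by the direction of the call. The bars of PHGDH and ALDH1L2 stand above those of all their neighbours, while TLE4, next to PSAT1, reaches 4.61. Over all tested genes 0.65% were higher than PHGDH and 0.68% higher than ALDH1L2.

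The 5 genes whose profile over the 6 arrays lay nearest to that of PHGDH were TLE4, ANO3, FMN2, TM4SF18 and UBE2Q2P13, with Euclidean distances of 0.16 to 0.24 between mean-centred log2(signal + 16) values. Each was at or near background on the MDA-MB-231 arrays, at 0.7 to 4.97 on average, and averaged 390.2 to 500.3 on the 231wCFry arrays. With 2 groups of 3 arrays, any gene with a like shift between the groups comes out near. The likeness thus describes the size of the shift on the log2(signal + 16) scale only, which understates the change of dim genes. With a pseudocount of 1 the log2 change was 5.02 for PHGDH and larger for each of the 5 genes, up to 7.97 for UBE2Q2P13.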

How the data were processed

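The deposited intensity of each probe set is a linear MAS5 signal, as the submitters' processing notes name it. Neither its software version nor its scaling is given in the sources used here. MAS5 subtracts mismatch signal, so ratios of dim values are unstable.

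Signals were transformed to log2(signal + 16). Of 54613 probe sets that are not controls, those with a mean over the 6 arrays at or above the 40th percentile (5.87) were tested with limma 3.58.1 (R 4.3.3; lmFit, then eBayes) without covariates, and adjusted by the Benjamini-Hochberg method over all 32771 tested. Of these, 30.3% rose and 32.3% fell. The fit was tested on simulated data. Gene names came from GEO's platform annotation, in which 1801 probe sets name several genes, and gene order and promoters from RefSeq (GRCh38.p14). The background level is the highest of 27 unspiked bacterial control probe sets on an array, and an "at least" fold sets the brighter group's mean of log2 signals over the higher, per array, of that level and the dim signal.

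The members, lists, tests and alternatives were chosen with earlier results of these data known. The text names every member, MTHFD2L, up to 4 genes per list with the smallest p among those called without overlap, up to 2 neighbours per member with the largest log2 change of at least 1, and the 5 genes nearest to PHGDH. AMT, TYMS, ATF4 and DDIT3 were added after their values were seen. Plots were made in Python 3.11.15 with matplotlib 3.10.9.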

Additional observations from a re-analysis of the deposited data

How the results depend on the processing

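PHGDH, PSAT1, PSPH, SHMT1, MTHFD2 and ALDH1L2 kept their direction and their call under every alternative that could be applied, 13 or 14 per gene. The log2 changes were 3.70 to 5.02 for PHGDH and 1.29 to 6.44 for ALDH1L2. For PSPH each alternative read the same brightest probe set or the median of its probe sets, so none could turn its direction. Its probe set that fell stayed lower, at log2 changes of -3.15 to -3.04 when 1 array was left out. MTHFD1L passed under 0 of 12. The median over a gene's probe sets was not tested anew. A gene counted as called when at least as many of its probe sets had passed in the median's direction as had not. By that rule SHMT2 (0.34) and MTHFD1 (-0.43) were called, MTHFD1 only through its dim probe set that fell. Leaving out the probe set types most open to cross-hybridisation made SHMT2 pass at 0.51, since another probe set then stands for the gene. Without those types 12580 probe sets were called, against 20506 with them, on fewer probe sets tested, and 19 neighbours rose, against 29; SLC19A1 reversed to -0.87 and LINC02076 to -0.67 on the log2 scale, each read by another probe set. Leaving out 1 array at a time gave 8426 to 8845 called genes over the whole array, against 9151 with all 6, and 43 or 44 of the pathway genes, against 46. Whether the replicate numbers pair the samples was not settled. Same-numbered arrays correlated at 0.0704, 0.0743 and 0.187 in their deviations from the group means, and arrays with different numbers at -0.134 to 0.0790. In 1 case, 231wCFry array 2, the correlation was slightly higher with MDA-MB-231 array 1 (0.0790) than with its own number (0.0743). With the replicate number as a block 9210 genes were called and 46 pathway genes. Without the types named above 3 ATF4 targets rose, against 5, because ASNS and SESN2 then had no probe set to test. The count of proliferation genes that rose was 2, against 1, under several settings, the block among them. The same arrays carry no detection calls here. Signals near the unspiked controls thus limit what can be said of MTHFD1L, GLDC and, among others, the MDA-MB-231 levels of ALDH1L2 and CBS.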
